A study of Mus musculus with 3 samples.

Results

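The genes described here are 37 genes of fatty acid synthesis and oxidation, taken by symbol from the 54532 genes of the deposited table. They fall into 13 synthesis genes, 4 acyl-CoA synthetase genes and 20 oxidation genes. Of the 37, 35 averaged 1 FPKM or more (fragments scaled for gene length and library depth) over the libraries and 2, Decr1 and Pdk4, were listed at 0. The cells were wild-type RAW264.7, a transformed mouse macrophage line. The cytokine RANKL, which all cells had for 3 days, turns it into bone-resorbing osteoclasts. The group of RANKL alone (0 h) received no thyroid stimulating hormone (TSH), and the others were given TSH at 10 mU/mL, 1 for 2 h and 1 for 24 h, so that time in culture may differ along with TSH. There was 1 library per group and 3 in all. The table names its columns R0, T1 and T2. R0 was read as RANKL alone, while the names T1 and T2 do not tell the 2 h library from the 24 h library, so nothing is read from the hours.

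No difference could be checked against replicates, and none was tested. Each ratio of FPKM carries a 95% interval that covers counting error only, from 16156926, 16809034 and 17390744 reads recovered for RANKL alone, T1 and T2. A gene is called lower or higher beyond counting error where that interval leaves out 1, which compares libraries and not conditions. The 7 osteoclast markers and 6 macrophage markers that averaged 1 FPKM or more identify the cells, with Ctsk at 1337, 983 and 980 FPKM in RANKL alone, T1 and T2. Summed over all 8 listed osteoclast markers the level was 3057, 2541 and 2465 FPKM, and over the 6 macrophage markers 1173, 1155 and 1152 FPKM. Such sums rest on the highest genes. Of the 7 osteoclast markers 4 were lower in T1 beyond counting error and 1, Nfatc1, higher, and all 7 were lower in T2. Of the 6 macrophage markers 3 were lower in each, while Adgre1 and Lyz2 were higher in both and Itgam in T1. Of all genes that averaged 1 FPKM or more, 12.2% and 13.2% were lower and 10.8% and 10.2% higher. Genes with many reads leave counting error at small changes, as Nfatc1 did in T2 at a ratio of 0.961 on 19781 and 20664 reads. Of the 7 osteoclast markers only 1, Ctsk, was lower past 1.2-fold on a log2(FPKM + 1) scale, in T1 and in T2, and 0 were higher. Of all genes 5.11% and 4.91% were lower past 1.2-fold. Among the macrophage markers Adgre1 and Itgam were low, at 1.82, 2.56 and 2.43 FPKM and at 1.05, 1.59 and 0.931 FPKM in RANKL alone, T1 and T2. Calcr, the eighth osteoclast marker, was below 1 FPKM in each library. Of 6 adipocyte markers and 3 hepatocyte markers, 0 reached a mean of 1 FPKM, and 4 and 2 of them had 0 reads in all libraries. The part of the osteoclast markers' lower sums in the fatty acid results was not tested, and in bulk RNA fewer cells of a type and less RNA per cell cannot be told apart.

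Fatty acids are built in the cytosol from citrate-derived acetyl-CoA and are then lengthened and desaturated at the endoplasmic reticulum, under the transcription factor SREBP1. They are burned in mitochondria, where the carnitine shuttle brings in acyl-CoA and repeated cycles of dehydrogenation, hydration, dehydrogenation and thiolysis release acetyl-CoA. AMPK, the kinase named in the study's title, phosphorylates acetyl-CoA carboxylase, whose product malonyl-CoA blocks the carnitine shuttle, and so links the 2 directions. Osteoclasts are rich in mitochondria, and mRNA levels do not measure the flux through either pathway.

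RefSeq promoter windows (GRCm38.p6, 250 bases before to 50 bases after a start) were found for 10 of the 13 synthesis genes, 4 of the 4 synthetase genes and 18 of the 20 oxidation genes. The CCAAT box, bound by NF-Y, which works beside SREBP at lipogenic promoters, was searched as CCAAT on both strands. It lay in 57.1% of 14 synthesis windows, 60.0% of 5 synthetase windows and 44.4% of 18 oxidation windows, against 37.4% of all 32851 windows. The sterol regulatory element TCACNCCAC was in 0 synthesis and 0 oxidation windows and in 1 synthetase window, at an inner start of Acsl1, against 1.24% of all. The E-box CACGTG was in 1 window, that of Elovl5, against 7.15% of all. TCAAGGTCA, read by estrogen-related receptors, and the direct repeat of AGGTCA with 1 base between, read by PPAR, were in 0 windows of any member, against 0.423% and 0.0396% of all. A match is a run of letters and not a measured site. The members' windows were richer in G and C than most, with medians of 63.8%, 71.7% and 60.7% against 52.7% over all windows.

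The bases before the start are shown for Fasn, the member with the most CCAAT boxes before its start among the synthesis genes, for Acsl3 and Etfa, a synthetase gene and an oxidation gene with boxes that were among the lower genes below, and for the stretch that Hadha and Hadhb share. Whether boxes go with levels was not tested. Other genes lower than with RANKL alone had boxes in their windows (Acly, Acss2, Acsl1, Acaa1a and Etfdh) or 0 (Elovl6, Acadl, Acads and Cpt2). In the 250 bases before its start, Acly had 0 boxes. Elovl5, higher in T1, and Etfb, higher in T2, had 2 each. No window was found for the lower genes Scd1, Scd2, Fads1 and Acaa2. Capitals mark CCAAT boxes on either strand, of which 2 of the 3 in Fasn overlap. Fasn is shown on its minus strand (chr11:120824548-120824797), Acsl3 on its plus strand (chr1:78657575-78657824) and Etfa on its minus strand (chr9:55512244-55512493).
Fasn: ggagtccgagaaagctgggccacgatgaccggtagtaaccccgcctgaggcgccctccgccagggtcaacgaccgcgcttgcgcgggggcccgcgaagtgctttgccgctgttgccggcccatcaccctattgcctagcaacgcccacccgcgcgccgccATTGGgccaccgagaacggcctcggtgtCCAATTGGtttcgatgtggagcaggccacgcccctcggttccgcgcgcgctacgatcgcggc
Acsl3: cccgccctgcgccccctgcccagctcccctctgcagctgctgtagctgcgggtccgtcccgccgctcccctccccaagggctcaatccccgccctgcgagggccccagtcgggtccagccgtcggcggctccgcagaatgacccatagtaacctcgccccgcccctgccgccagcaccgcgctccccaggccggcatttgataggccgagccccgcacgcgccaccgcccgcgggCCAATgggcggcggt
Etfa: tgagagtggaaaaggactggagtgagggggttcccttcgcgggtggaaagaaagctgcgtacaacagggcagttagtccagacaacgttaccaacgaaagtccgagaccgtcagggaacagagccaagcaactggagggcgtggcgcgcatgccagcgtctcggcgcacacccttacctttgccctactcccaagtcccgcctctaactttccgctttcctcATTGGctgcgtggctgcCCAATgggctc
Hadha and Hadhb encode the subunits of 1 enzyme, and their RefSeq starts point away from each other with 272 bases between them. The 228 bases below belong to the windows of both genes (chr5:30155003-30155230, plus strand, the strand of Hadhb) and hold 0 CCAAT boxes.
Hadha-Hadhb: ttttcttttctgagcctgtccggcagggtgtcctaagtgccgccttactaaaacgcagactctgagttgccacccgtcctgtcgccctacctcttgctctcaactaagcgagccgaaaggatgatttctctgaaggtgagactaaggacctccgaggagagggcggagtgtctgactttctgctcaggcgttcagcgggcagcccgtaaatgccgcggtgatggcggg

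The first question was how strongly each gene was expressed. FPKM is a level per length, so levels can be set side by side. The most abundant synthesis gene was Scd2, a stearoyl-CoA desaturase that makes monounsaturated fatty acids, at 252, 228 and 233 FPKM in RANKL alone, T1 and T2, the order used for all levels here. Its close relative Scd1 stood at 8.73, 7.41 and 7.72 FPKM, so of these 2 stearoyl-CoA desaturase genes Scd2 had by far the higher level. The genes share 95.5% of letters over 623 bases, and reads in that stretch may be split between them in a way the sources used here do not give. Acly, whose product cleaves citrate to cytosolic acetyl-CoA, was at 98.1, 90.6 and 91.4 FPKM. Acss2, which makes the same acetyl-CoA from acetate, was near the low filter at 1.67, 1.12 and 1.51 FPKM. Fasn, the fatty acid synthase gene, was at 40.3, 40.2 and 37.9 FPKM, while Acaca, encoding the carboxylase upstream of it, was at 6.30, 6.65 and 6.20 FPKM.

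Among the elongases, Elovl1, which acts on very long chains, stood first at 67.4, 69.4 and 68.1 FPKM. Elovl5, for polyunsaturated chains, was at 25.6, 27.5 and 26.8 FPKM. Elovl6, which lengthens palmitate, was lowest of the 3 at 4.66, 4.52 and 3.93 FPKM. The front-end desaturase genes Fads1 and Fads2 neighbour each other on chromosome 19 and were at 53.8, 51.0 and 49.5 FPKM and at 41.9, 42.0 and 39.0 FPKM. Srebf1, the gene of SREBP1, was at 33.0, 33.6 and 32.5 FPKM. Me1, malic enzyme, a source of NADPH, was at 23.8, 22.9 and 22.2 FPKM. With RANKL alone the 13 levels thus ran from Scd2 down to Acss2.

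Acyl-CoA synthetases activate free fatty acids for either direction. Acsl4, which prefers arachidonic acid, led at 33.6, 32.5 and 32.4 FPKM, followed by Acsl5 at 27.4, 28.2 and 26.7, Acsl3 at 18.1, 16.1 and 16.3, and Acsl1 at 6.19, 5.87 and 5.65 FPKM. That order held in each of the 3 libraries.

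In oxidation, Etfa had the highest FPKM, at 96.2, 89.7 and 86.0. It encodes the alpha subunit of the flavoprotein that carries electrons from the acyl-CoA dehydrogenases. Its partner subunit gene Etfb stood at only 5.22, 6.46 and 7.06 FPKM, from 98, 126 and 144 reads. In the annotation (GENCODE M21, GRCm38) 617 exon bases of Etfb, of a deposited length of 1164, also belong to Gm45233, a gene on the same strand that was listed at 0 in all libraries. The part of that overlap in the low Etfb level was not tested. Etfdh, which passes the electrons on to ubiquinone, was at 11.7, 10.1 and 11 FPKM.

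The carnitine shuttle genes were low to moderate. Cpt1a, the malonyl-CoA-sensitive gate, was at 11.2, 10.3 and 11.1 FPKM, Cpt2, its partner inside mitochondria, at 18.2, 16.4 and 15.9, and the carrier gene Slc25a20 at 3.46, 3.14 and 3.32 FPKM. The acyl-CoA dehydrogenase genes, which open each cycle, ranged from Acadl (long chain) at 53.4, 47.5 and 48.0 FPKM through Acads (short chain) at 34.7, 30.6 and 31.6 and Acadm (medium chain) at 23.2, 23.5 and 23.8 to Acadvl (very long chain) at 13.3, 12.2 and 13.9 FPKM. Of Acadvl, 1151 exon bases lie opposite exons of Dvl2, and the strand handling of the counting is not given in the sources used here, so its level is uncertain.

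For the later steps, Hadha and Hadhb, the trifunctional protein, were at 21.8, 21.2 and 20.8 FPKM and at 15.0, 14.4 and 14.4 FPKM. Echs1, the short-chain hydratase, was at 7.22, 7.09 and 7.07 FPKM and Hadh, the short-chain hydroxyacyl-CoA dehydrogenase, at 5.11, 5.43 and 4.60 FPKM. Acaa2, a mitochondrial thiolase gene, was at 54.6, 47.2 and 46.0 FPKM, and Acaa1a, a peroxisomal one, at 63.1, 65.8 and 59.2 FPKM. Both stood above Hadha and Hadhb. Eci1, an isomerase for unsaturated chains, was at 32.1, 32.1 and 29.9 FPKM. Mlycd, which removes malonyl-CoA, was at 4.91, 5.69 and 5.08 FPKM.

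Decr1 and Pdk4 had 0 reads in every library. A count of 0 allows up to 3 reads, which is 0.0480, 0.0461 and 0.0441 FPKM for Decr1 in RANKL alone, T1 and T2 and 0.0530, 0.0510 and 0.0488 FPKM for Pdk4. These limits cover reads as the authors counted them, and whether a 0 means no mRNA or reads lost in the counting was not tested. Decr1, 2,4-dienoyl-CoA reductase, serves the oxidation of polyunsaturated chains, and Pdk4 is a pyruvate dehydrogenase kinase that PPAR factors induce when fat is burned.

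**Figure D1:**
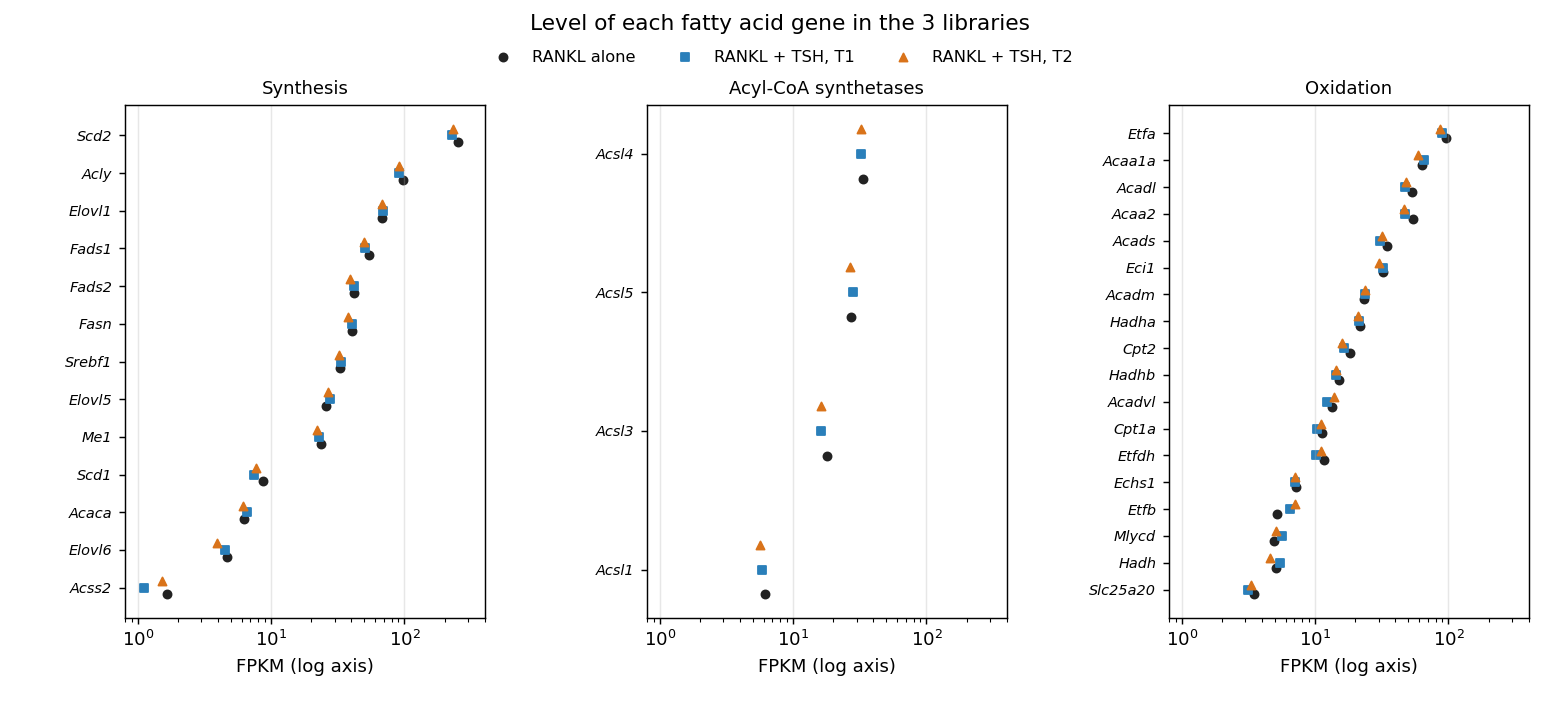
FPKM of the 35 members past the filter (log axis), with circles for RANKL alone, squares for T1 and triangles for T2, in 1 panel each for synthesis, acyl-CoA synthetases and oxidation. Levels ran from Scd2 at 252 FPKM to Acss2 at 1.67 FPKM with RANKL alone, and the 3 symbols of a gene lay close together.

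The next question was what differed between the T1 library and RANKL alone. Of the 13 synthesis genes 5 were lower beyond counting error, against 12.2% of the 11069 genes past the filter, and 1 was higher, against 10.8%. The 5 were Acly, Scd1, Scd2, Fads1 and Acss2, and the higher gene was Elovl5. Changes were taken in log2(FPKM + 1), on which low genes appear to change less than they do. The median change was -0.04, beside 0.00 over all genes, and 8 of 13 were below 0, beside 50.4% of all. Members are better covered than most genes, with medians of 5496, 5210 and 3335 reads over the libraries for synthesis, synthetase and oxidation genes against 1833 for all, and well covered genes leave counting error at smaller changes. Among genes that averaged 5 FPKM or more, 14.6% were lower and 13.1% higher.

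Acss2 had the largest change of any member in T1. It was at 1.12 FPKM there from 191 reads, against 1.67 from 273 reads, a ratio of 0.673 (0.556 to 0.813). Its gene lies at chr2:155517948-155585724 and shares 395 exon bases with Gss on the opposite strand. It was the only synthesis gene past 1.2-fold on the log2(FPKM + 1) scale, on the lower side, where 5.11% of all genes were, with 5.12% on the higher side. At a looser 1.1-fold 3 synthesis genes passed, beside 28.5% of all genes in either direction, and at 1.5-fold and 2-fold 0 did, beside 2.62% and 1.04%. In T2 it stood at 1.51 FPKM, between the other libraries.

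Scd1 had a ratio of 0.849 (0.759 to 0.949) and Scd2 one of 0.908 (0.891 to 0.925) in T1. Scd1 and Scd2 were thus both lower in T1. The sum of their reads, which does not depend on how reads were split between them, had a ratio of 0.906 (0.889 to 0.923). Acly (chr11:100476353-100528000) had a ratio of 0.923 (0.895 to 0.952), a small difference resting on 8356 and 8018 reads. Fads1 was at 0.948 (0.901 to 0.998), with an interval that almost reached 1, while the interval of its neighbour Fads2 held 1 (0.917 to 1.09). Elovl5 was higher at 1.07, with a lower bound of its interval just above 1, and with libraries rescaled to the same FPKM total it was no longer beyond counting error. Fasn at 0.997 (0.965 to 1.03), Srebf1 at 1.02 (0.969 to 1.07) and Acaca at 1.06 (0.989 to 1.13) had intervals that held 1. Acaca shares 99.2% of letters over 6118 bases with the gene Gm5182, at 3.31, 3.50 and 3.13 FPKM, and with its expressed copies summed the ratio was 1.06 (0.996 to 1.12).

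Of the synthetase genes 1 of 4, Acsl3, was lower in T1 beyond counting error, at a ratio of 0.889 (0.821 to 0.963), where 12.2% of all genes were lower. Acsl1, Acsl4 and Acsl5 were at 0.947, 0.966 and 1.03, with intervals that held 1.

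In oxidation 5 of 18 measured genes were lower beyond counting error in T1 and 1 was higher, beside the same 12.2% and 10.8%. The median change was -0.08, and 0 of 18 passed 1.2-fold, beside 10.2% of all genes in either direction. Acaa2 had the lowest ratio of the 18, at 0.864 (0.799 to 0.935). Etfdh followed at 0.867 (0.803 to 0.936), Acads at 0.881 (0.813 to 0.955), Acadl at 0.889 (0.830 to 0.952) and Etfa at 0.932 (0.885 to 0.983). Hadha, of the steps between dehydrogenation and thiolysis, was at 0.976 (0.928 to 1.03), Hadhb at 0.956 (0.892 to 1.03) and Echs1 at 0.982 (0.897 to 1.07). Hadhb shares 99.8% of letters over 1428 bases with Gm13910, and their summed ratio was 0.951 (0.895 to 1.01). The medium-chain gene Acadm was at 1.01 (0.941 to 1.09), unlike the point values of Acadl and Acads, though differences between genes were not tested.

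The carnitine shuttle genes had point values below 1 in T1 with intervals that held it: Cpt1a at 0.925 (0.835 to 1.02), Cpt2 at 0.905 (0.813 to 1.01) and Slc25a20 at 0.908 (0.762 to 1.08). Acaa1a was higher at 1.04 (1.001 to 1.09). With its copy Acaa1b, which shares 96.5% of letters over 773 bases, the summed ratio was 1.035 (0.994 to 1.08). Etfb at 1.24 (0.942 to 1.63) and Mlycd at 1.16 (0.971 to 1.38) had the highest point values, within the wide counting error of few reads.

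The T2 library was set against the same library of RANKL alone, so its values are not independent of those above. Of the 13 synthesis genes 6 were lower beyond counting error and 0 higher, against 13.2% and 10.2% of all genes, or 16.5% and 12.1% among genes that averaged 5 FPKM or more. The 6 were Acly, Fasn, Scd1, Scd2, Fads1 and Elovl6. The median change was -0.10, with 11 of 13 below 0 beside 50.6% of all genes, and 0 of 13 passed 1.2-fold, beside 9.91%. At 1.1-fold 2 of 13 passed, beside 28.4%, and at 1.5-fold and 2-fold 0, beside 2.46% and 0.768%.

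Elovl6 had the lowest ratio, 0.844 (0.740 to 0.962), from 483 reads with RANKL alone and 443 in T2. Scd1 was at 0.884 (0.793 to 0.985), Scd2 at 0.925 (0.907 to 0.942) and their sum at 0.923 (0.907 to 0.940). Acly was at 0.931 (0.903 to 0.960), close to its T1 value. Fads1 was at 0.921 (0.875 to 0.969) and Fasn at 0.940 (0.909 to 0.971). The synthase gene was thus lower in this library, where in T1 its interval held 1. Me1 at 0.932 (0.866 to 1.002) and Fads2 at 0.930 (0.852 to 1.02) had point values near those of Acly and Fasn, on fewer reads, and intervals that held 1. Srebf1, the regulator gene, was at 0.985 (0.937 to 1.04), and Acaca at 0.985 (0.922 to 1.05).

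Of the synthetase genes 2 of 4 were lower in T2, Acsl1 at 0.912 (0.837 to 0.995) and Acsl3 at 0.905 (0.836 to 0.979), where 13.2% of all genes were lower, or 16.5% of those that averaged 5 FPKM or more. All 4 point values were below 1, with a median change of -0.08.

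In oxidation 6 of 18 were lower beyond counting error in T2 and 1 was higher, beside the same 13.2% and 10.2%, with a median change of -0.07. Acaa2 was lowest at 0.843 (0.780 to 0.912). Cpt2, of the inner mitochondrial membrane, was at 0.876 (0.786 to 0.975), Etfa at 0.894 (0.848 to 0.942), Acadl at 0.899 (0.840 to 0.961), Acads at 0.911 (0.842 to 0.986) and Acaa1a at 0.938 (0.900 to 0.978). Etfb was the higher gene and the only oxidation gene past 1.2-fold, where 5.00% of all genes were on the higher side. Its ratio was 1.35 (1.04 to 1.77), with the overlap with Gm45233 given above. Its partner Etfa stood on the other side of 1. Cpt1a at 0.990 (0.897 to 1.09), Acadm at 1.03 (0.957 to 1.103) and Acadvl at 1.05 (0.936 to 1.17) stayed within counting error. Hadha at 0.958 (0.911 to 1.01) and Hadhb at 0.957 (0.893 to 1.03), whose promoter windows overlap, had intervals that held 1. With the copy Gm13910 summed in, Hadhb was lower beyond counting error, at 0.940 (0.885 to 0.999).

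**Figure D2:**
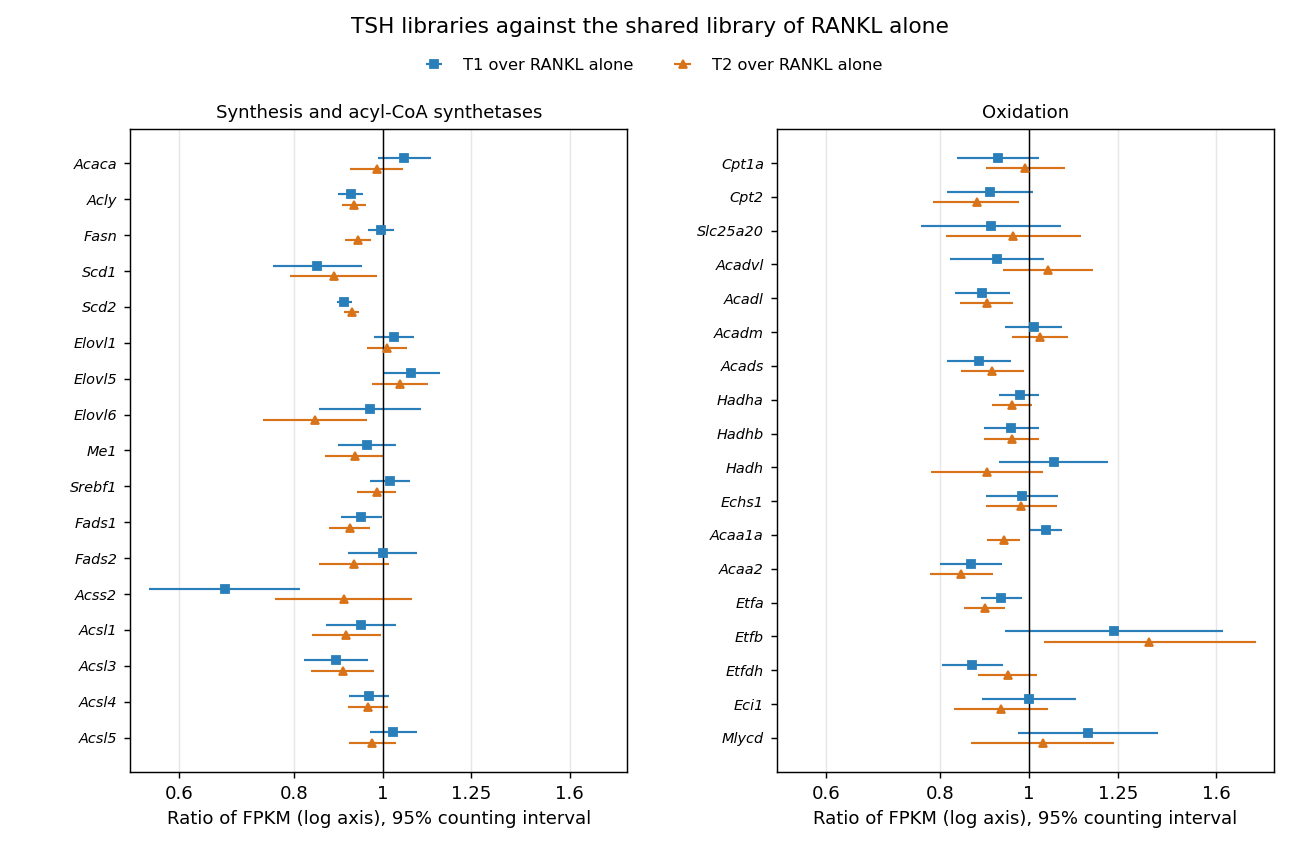
Ratio of FPKM over RANKL alone (log axis) for T1 (squares) and T2 (triangles), with 95% counting intervals, for synthesis and synthetase genes at left and oxidation genes at right. Most points lay below 1, with Acss2 in T1 at 0.673 and Etfb in T2 at 1.35 at the ends, and both sets share 1 library of RANKL alone.

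**Figure D3:**
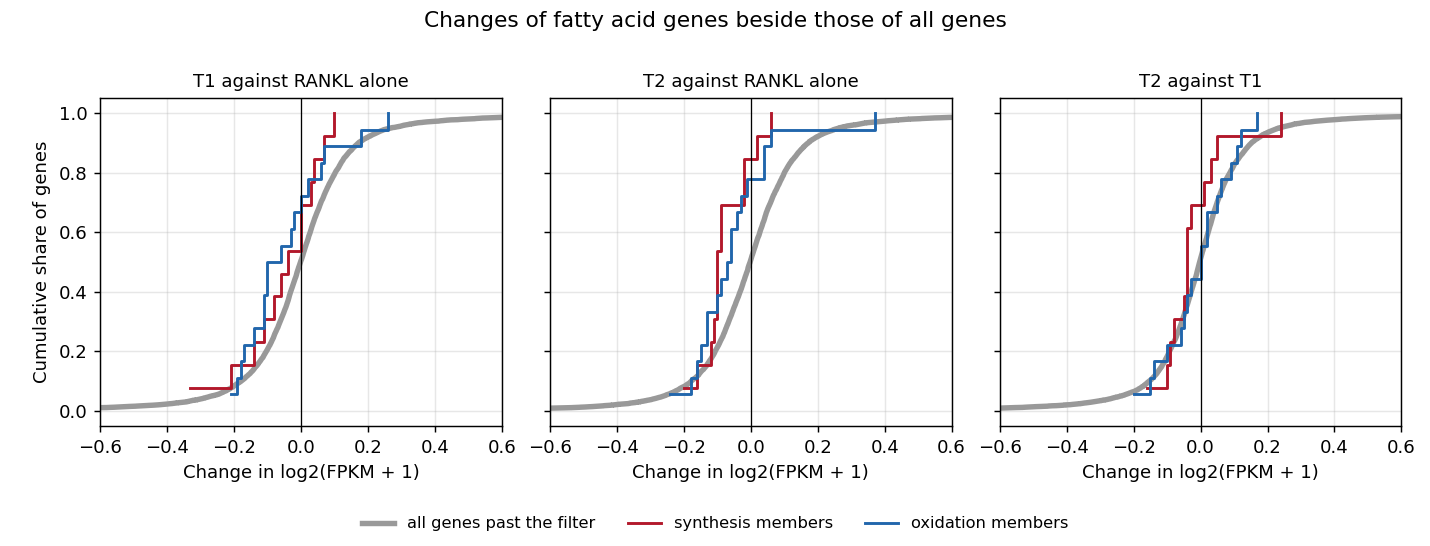
Cumulative share of genes against the change in log2(FPKM + 1), for synthesis members (red), oxidation members (blue) and all 11069 genes past the filter (grey), in 1 panel per comparison. Near their middle the members' curves lay left of the grey curve against RANKL alone, while they met or crossed it at the ends, with medians of -0.04 and -0.08 in T1 and -0.10 and -0.07 in T2, and the oxidation curve followed it in T2 against T1.

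The TSH libraries were also compared with each other, which leaves out the library of RANKL alone. Of the 13 synthesis genes 3 were lower in T2 beyond counting error and 1 was higher, against 10.1% and 7.93% of all genes, with a median change of -0.04. With libraries rescaled to the same FPKM total, 1 was lower and 3 were higher. Of the 18 oxidation genes 2 were lower and 2 higher, shares near those of all genes, with a median change of 0.00. Among genes that averaged 5 FPKM or more the shares were 12.4% and 8.87%. Below 0 were 9 of the 13 and 9 of the 18, beside 51.1% of all. Past 1.2-fold there were 0 members, beside 8.45% of all genes, 4.33% lower and 4.12% higher. At 1.1-fold 2 synthesis and 4 oxidation genes passed, beside 23.5%, and at 1.5-fold and 2-fold 0, beside 2.27% and 0.831%.

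Acss2 was the higher synthesis gene, at a ratio of 1.35 (1.12 to 1.63), its level in T2 being nearer to that of RANKL alone. Elovl6 was lower at 0.870 (0.764 to 0.992), Acaca at 0.932 (0.874 to 0.994) and Fasn at 0.942 (0.912 to 0.973). Acaca and Fasn encode the enzymes of consecutive steps, carboxylation and chain building. Acly at 1.01 (0.978 to 1.04), Scd2 at 1.02 (0.999 to 1.04) and Fads1 at 0.971 (0.923 to 1.02) had intervals that held 1.

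Acaa1a was lower in T2 than in T1, at 0.900 (0.864 to 0.937), and Hadh at 0.847 (0.739 to 0.971). With Acaa1b summed in, the ratio was 0.898 (0.862 to 0.934). Acadvl was higher at 1.14 (1.01 to 1.28) and Etfdh at 1.09 (1.01 to 1.18). Acaa2 at 0.975 (0.900 to 1.06) and Acadl at 1.01 (0.943 to 1.08) were within it. Of the synthetase genes 0 of 4 differed beyond it in either direction.

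**Figure D4:**
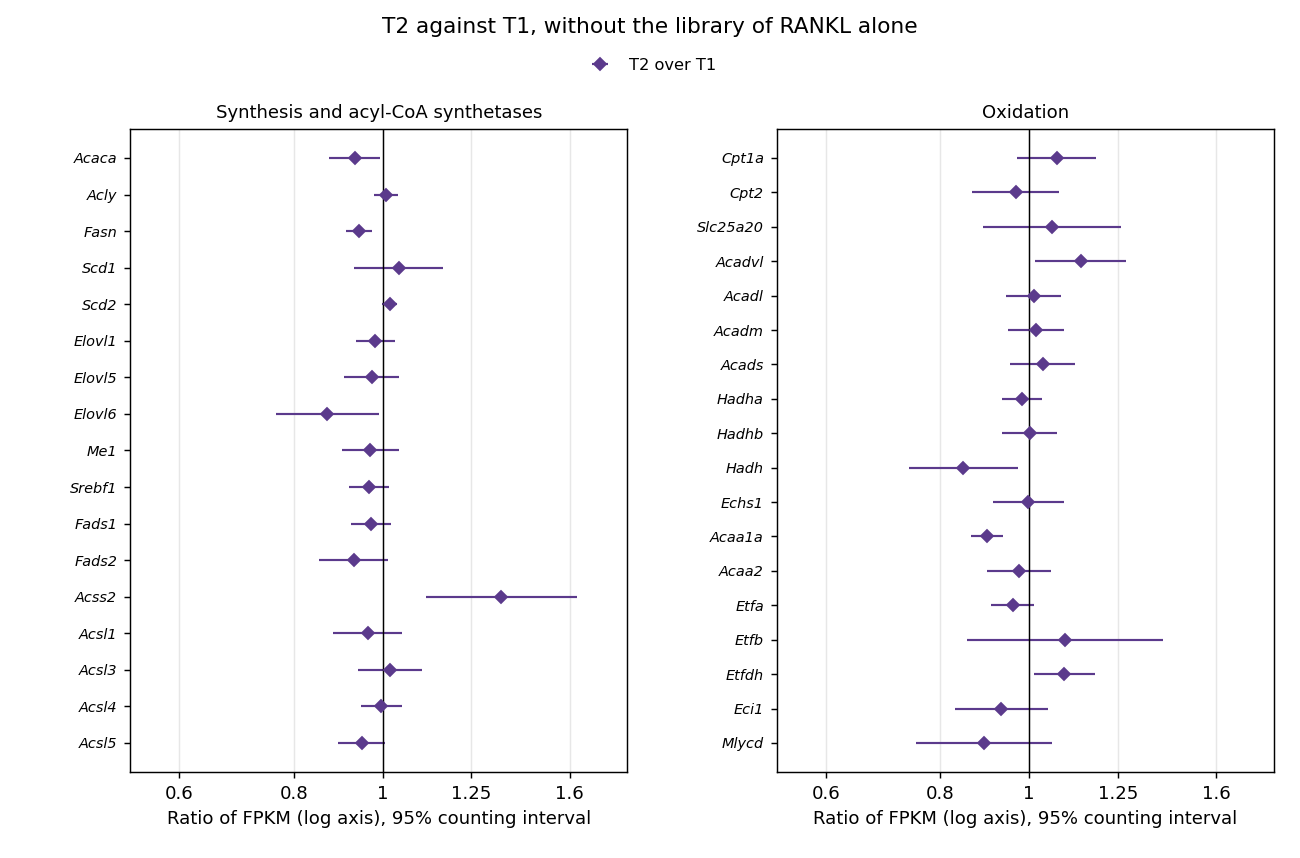
Ratio of FPKM in T2 over T1 (log axis) with 95% counting intervals, synthesis and synthetase genes at left and oxidation genes at right. Acss2 at 1.35 stood highest and Hadh at 0.847 lowest, and most intervals held 1.

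Other genes of the same pathways were read from lists chosen by function. Of 17 further synthesis genes past the filter, 3 were lower in T1 and 3 in T2 beyond counting error, and 2 and 0 were higher, beside 12.2% and 13.2% of all genes lower and 10.8% and 10.2% higher. Mid1ip1, which activates acetyl-CoA carboxylase, was at 50.1, 44.9 and 40.2 FPKM, with changes of -0.16 and -0.31. Hacd1, a dehydratase of chain elongation, was at 7.44, 5.63 and 5.71 FPKM, with changes of -0.35 and -0.33. Elovl3 was at 1.29, 0.758 and 1.38 FPKM, with a change of -0.38 in T1 that was within counting error and one of 0.43 in T2 against T1 that was not. Mcat, of mitochondrial fatty acid synthesis, had a change of -0.16 in T2 against T1, within counting error. Scd3, a further stearoyl-CoA desaturase gene, averaged 0.885 FPKM and so fell under the filter. It was at 1.64, 0.533 and 0.477 FPKM, from only 92, 31 and 29 reads. Its ratios to RANKL alone were 0.324 (0.208 to 0.492) in T1 and 0.290 (0.184 to 0.445) in T2. Scd4, also under the filter, was within counting error on 10, 10 and 19 reads.

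Of 22 further genes of mitochondrial acyl-CoA and ketone metabolism, T1 had 7 lower and 0 higher, and T2 had 5 lower and 1 higher. The shares of all genes were 12.2% and 10.8% in T1 and 13.2% and 10.2% in T2. Eci2, an isomerase gene, was at 6.72, 5.45 and 6.45 FPKM, and Pcca, a propionyl-CoA carboxylase subunit gene, at 8.75, 7.38 and 7.89 FPKM. Mut, of propionate breakdown, was at 19.9, 17.4 and 16.8 FPKM. Acot2, a mitochondrial thioesterase gene, was at 4.69, 4.15 and 5.46 FPKM and was higher in T2 than in T1 beyond counting error. Among 14 peroxisomal genes T1 had 1 lower and 1 higher, and T2 had 1 lower and 0 higher. Beside the shares of all genes just given, these counts are not read as a result. Abcd4 was the higher gene in T1, at a change of 0.25. Acaa1b, the copy of Acaa1a given above, was lower in T2, at -0.53 from 4.17 to 2.59 FPKM and 132 to 89 reads. Decr2, the peroxisomal dienoyl-CoA reductase, was at 5.69, 4.95 and 4.76 FPKM, while its mitochondrial counterpart Decr1 was listed at 0.

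Of 18 genes for uptake, storage and release of fatty acids, T1 had 4 lower and 0 higher, and T2 had 9 lower and 1 higher, against 12.2% and 10.8% of all genes in T1 and 13.2% and 10.2% in T2. Among genes that averaged 5 FPKM or more 16.5% were lower in T2. Cd36, a fatty acid receptor gene, was at 5.56, 4.58 and 4.66 FPKM and Abhd5, the lipase co-activator, at 5.34, 4.29 and 5.12 FPKM. Slc27a4, a fatty acid transporter gene, was at 4.75, 4.26 and 3.74 FPKM and Dgat1, of the last step of triglyceride synthesis, at 4.81, 4.45 and 3.79 FPKM. The last 2 passed 1.2-fold on the lower side in T2, where 4.91% of all genes did. Lipe, hormone-sensitive lipase, was at 4.45, 3.92 and 4.67 FPKM, higher in T2 than in T1 beyond counting error.

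Of 21 regulator genes, T1 had 2 lower and 1 higher, and T2 had 4 lower and 3 higher. With 12.2% and 10.8% of all genes in T1 and 13.2% and 10.2% in T2, the shares of the regulators are not read as a result. Insig1, which holds SREBP factors in the endoplasmic reticulum, was at 31.4, 27.0 and 25.2 FPKM. Scap, the escort of SREBP factors, was higher in each, at 8.17, 9.22 and 9.29 FPKM. The AMPK subunit gene Prkag1 was at 6.21, 5.15 and 6.06 FPKM, within counting error. Prkab1, another AMPK subunit gene, had a change of -0.23 in T2, and Sirt1, a deacetylase gene, one of 0.23. Prkaa1, also of AMPK, was higher in T2 beyond counting error, at a ratio of 1.096 (1.005 to 1.196).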

How the data were processed

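Messenger RNA was sequenced in 3 libraries of RAW264.7 cells, made with a SMARTer mRNA kit per the labels' protocols. The values are FPKM as the authors deposited them, 1 column per library, on GRCm38 (mm10) per the submitters' processing notes. For aligner, counter, strand handling and annotation release: not given in the sources used here. Gene length in bases is another deposited column and belongs to no library. FPKM times length was a whole multiple of 1 step per library, within 0.01, for 100% of values above 0, which gave reads per gene. PCR copies are not independent molecules, so intervals cover counting error only. For a gene 1 kb long, 3 reads come to 0.186, 0.179 and 0.171 FPKM.

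Changes were computed as log2(FPKM + 1) for the 11069 genes that averaged 1 FPKM or more. Ratios carry exact conditional (Clopper-Pearson) 95% intervals. There was no test, since each group had 1 library. The members and the gene lists (194 symbols, 193 found) were chosen with earlier results of these data known. All 37 members are given. Of each other list, the 2 genes with the largest change per comparison were named, except 1 that is not reported here, and Scap was chosen after its values were seen. Copies (95% identity or more, across 100 bases or more that make up 50% of the shorter transcript) were sought with BLAST+ 2.17.0 in GENCODE M21 transcripts. The functions were tested on simulated reads. Python 3.11.15, numpy 2.4.6, pandas 2.3.3, scipy 1.17.1 and matplotlib 3.10.9 were used.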

Additional observations from a re-analysis of the deposited data

Results flagged for a closer look

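Acaa1a, encoding a peroxisomal thiolase, lay on opposite sides of RANKL alone in the TSH libraries. Its changes in log2(FPKM + 1) were 0.06 (T1) and -0.09 (T2), so that T2 was at -0.15 against T1. Each change was beyond counting error, that of T1 only just (1.001 to 1.086), and the difference was not tested against replicates. With its copy Acaa1b summed in, the T1 interval held 1 (0.994 to 1.08), and with libraries rescaled to the same FPKM total Acaa1a was not higher in T1 beyond counting error. Its exons also share 290 bases with Myd88 on the opposite strand, which stood at 23.3, 23.9 and 23.9 FPKM.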

How the results depend on the processing

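Over the alternatives, 0 genes that were beyond counting error changed direction, and 419 changes of single genes moved by less than their counting error. The 1 other was Scd2 in T2 against T1, at 0.06 with libraries rescaled to the same FPKM total. Medians of the lists moved by less than the members' typical counting error, also with the mean in place of the median. Rescaling put the median of all genes at -0.024, 0.005 and 0.027 in T1, T2 and T2 against T1. It left 0 synthesis and 0 oxidation genes higher in T1, gave 2 synthetase genes lower in T1 and 1 in T2, and in T2 against T1 gave 1 synthesis gene lower and 3 higher. Median-of-ratios scaling left every count within 1.5 times, but it hardly moved the values. The medians of all genes were -0.001, -0.002 and -0.003 both as deposited and after it. Taking away the low filter adds only Decr1 and Pdk4, with 0 reads, so it could not change these counts.

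Called at 1.1-fold in place of 1.2-fold, 3, 2 and 2 synthesis genes passed in T1, T2 and T2 against T1, 6, 5 and 4 oxidation genes, and 1 synthetase gene in T1. At 1.5-fold 0 synthesis genes in T1 and 0 oxidation genes in T2 passed. A pseudocount of 5 left 0 in each of those 2, and one of 0.1 gave 1 oxidation gene in T1 and 1 synthesis gene in T2 against T1. With a mean of at least 5 FPKM, which leaves out Acss2, 0 synthesis genes passed 1.2-fold in T1 and 0 were higher in T2 against T1. Without the members that have a near-identical copy, 8 synthesis and 14 oxidation genes were left, so these counts come from fewer genes. Of the 8, 3 were lower in T1, 3 in T2 and 1 in T2 against T1. Of the 14, 0 were higher in T1 and 1 was lower in T2 against T1. Without Etfb, an alternative chosen after seeing the data, 0 oxidation genes were higher or past 1.2-fold in T2. No paired analysis was possible because each group had 1 library.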

Other observations

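Decr1 was listed at 0 in all libraries on a stretch of chromosome 4 whose neighbours on 1 side were measured. Nbn, the next gene, was at 10.7, 10.4 and 12.1 FPKM in RANKL alone, T1 and T2, and Osgin2, beyond it, at 5.32, 5.50 and 5.78 FPKM. Calb1, on the other side, had 0 reads in all 3 libraries. The deposited length of Decr1 is 3879 bases, and no exon of another gene overlaps its exons in the annotation used.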
